A study of Homo sapiens with 6 samples.

Results

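The snoRNA host genes examined here are the genes whose symbol is SNHG followed by a number, together with GAS5, ZFAS1 and DANCR. By symbol in GENCODE release 44, 31 of the 60664 genes in the deposited count table belonged to this group, all of them annotated as long non-coding RNA genes. RNA-seq had been carried out on U-2 OS, a human osteosarcoma cell line of polyploid genotype per the labels, after transient transfection with a control siRNA (siControl, 3 libraries) or with siRNA against SFPQ (siSFPQ, 3 libraries), both at 30 nM. SFPQ is a nuclear RNA- and DNA-binding protein of the DBHS family, whose other members are NONO and PSPC1. The replicates were biological replicates per the study, the RNA was polyadenylated, and the libraries held between 43469321 and 47119203 counts. No further allele or agent differed between the groups in the labels, and the time after transfection is not given in the sources used here.

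A snoRNA host gene is transcribed and spliced, and small nucleolar RNAs (snoRNAs) are then released from the excised introns. Box C/D snoRNAs guide 2′-O-methylation of ribosomal RNA and box H/ACA snoRNAs guide its pseudouridylation, while small Cajal body RNAs (scaRNAs) guide the same changes on spliceosomal RNAs. The spliced host RNA usually has no long open reading frame, and for many hosts it is kept low by nonsense-mediated mRNA decay (NMD). Several hosts begin with a terminal oligopyrimidine (5′TOP) tract, the start shared with messenger RNAs of ribosomal proteins. Libraries of polyadenylated RNA mainly count the spliced host RNA, and not the short snoRNAs.

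The cells and the knock-down were checked first. SFPQ had 22338, 23139 and 21753 counts in siControl and 3140, 3863 and 3151 in siSFPQ, a log2 fold change of -2.73 (SE 0.05, adjusted p = 6.33e-30). NONO was at a log2 fold change of 0.03 (adjusted p = 0.504), and PSPC1 rose by 1.13 (SE 0.042, adjusted p = 2.28e-21). Of the osteoblast-lineage markers, RUNX2 had a mean of 2637 normalized counts in siControl and COL1A1, SPARC and VIM had 133111, 101646 and 42286. In siSFPQ COL1A1 fell by 0.35 and SPARC fell by 0.17, VIM rose by 0.32, and RUNX2 was at 0.06 (edgeR adjusted p = 0.295). ALPL had 161 and COL1A2 38.0 normalized counts, and the further markers SP7, IBSP and BGLAP were at or near 0, although BGLAP, with 0, 0 and 1 counts in siControl and 5, 6 and 6 in siSFPQ, passed the test as higher. Of the epithelial and blood markers, EPCAM reached 233 normalized counts, KRT5 52.1, CDH1 50.4 and PTPRC 31.7, and CD3E and HBB were near 0. CDH1 and KRT5 rose in siSFPQ by 0.76 and 0.59, PTPRC fell by 1.61, and the part of these marker changes in the results below was not tested.

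After loss of SFPQ, more host genes were higher than lower. Of the 30 host genes tested, 16 rose, 4 fell and 10 did not pass an adjusted p of 0.05 (edgeR quasi-likelihood fit, p-values adjusted by Benjamini-Hochberg across 29022 genes). Over all genes tested, 22.4% rose and 22.1% fell, so that 44.6% were called in either direction. The median log2 fold change of the host genes was 0.24, beside 0.02 over all genes tested. The changes were mostly small. Among the host genes tested only SNHG31, which fell, passed a log2 fold change of 1.5 in size, a size that 5.54% of all genes passed upward and 4.77% downward. The remaining host gene, SNHG28, was not tested, with 0 counts in each siControl library and 1, 7 and 0 in siSFPQ. In bulk RNA, a change in every cell and a change in the share of cells that express a gene cannot be told apart.

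Abundant genes passed the test more often, and most host genes are abundant for long non-coding RNAs. At a mean of at least 1 CPM (the count scaled to each library's total) there were 25 of the 30 tested host genes, beside 1626 of 7190 tested long non-coding RNA genes. Of these 25, 16 rose and 3 fell. At that level 30.2% of all genes rose and 34.4% fell, and of the long non-coding RNA genes 29.5% rose and 25.8% fell. In 17 host genes every siSFPQ library lay above every siControl library in normalized counts, and in 4 every one lay below, where 26.9% and 25.4% of all genes tested did so. The 17 include SNHG22, where counts of 2 in both groups were parted only by the scaling. Of the 16 genes that rose, SNHG8 was the one whose libraries overlapped between the groups.

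**Figure D1:**
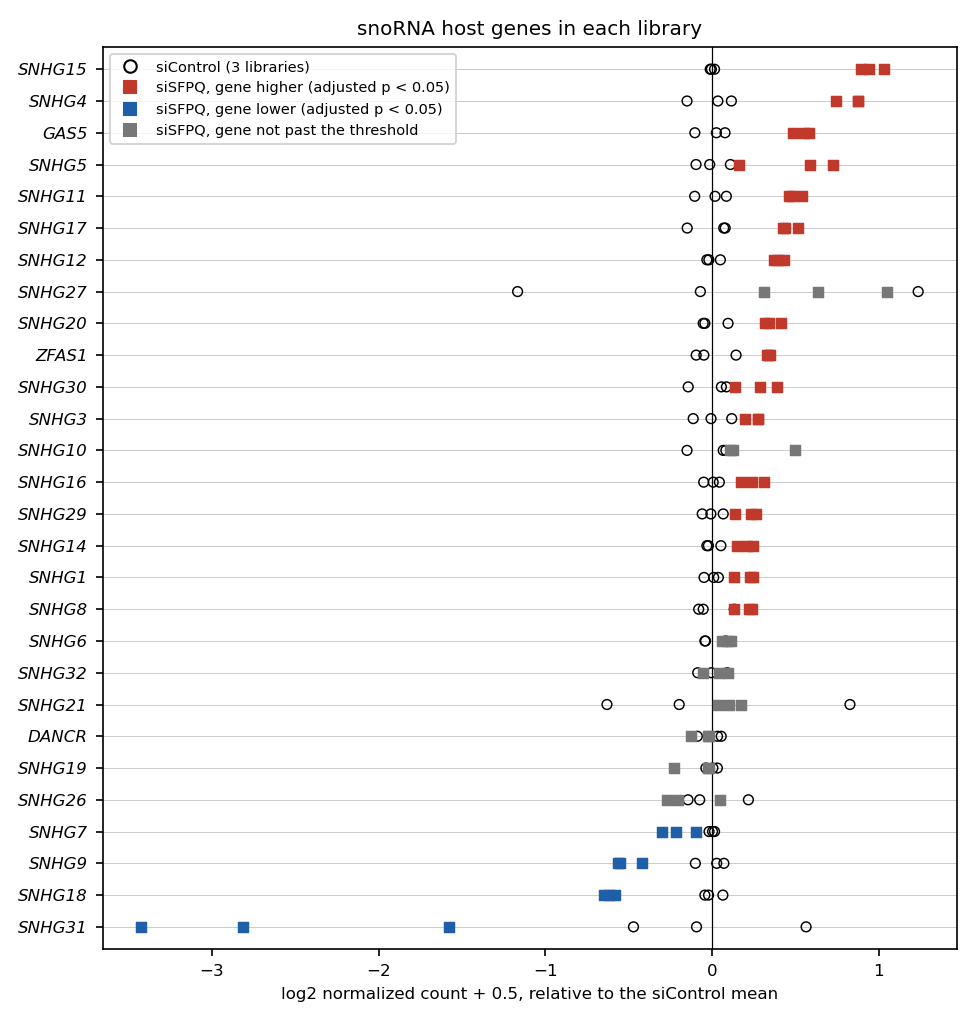
Each row is a snoRNA host gene with a mean of at least 10 counts, and each point is 1 library, as log2 of the normalized count plus 0.5 relative to the siControl mean; open circles are siControl and squares are siSFPQ, coloured by the call at an adjusted p of 0.05. The siSFPQ points of SNHG15 and SNHG4 lie well to the right with tight replicates, SNHG31 lies far to the left with wide scatter, and SNHG27 and SNHG21, with few counts, scatter across the zero line.

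Summed over all 31 host genes, the reads made up 730, 705 and 741 CPM in siControl and 908, 868 and 900 CPM in siSFPQ. Every siSFPQ library was thus above every siControl library. The sum rested on few genes: SNHG29 gave 15.8% of it, SNHG14 12.3% and GAS5 10.7%, and these with SNHG16, DANCR, SNHG1 and SNHG3 gave 67.9%. The median host gene, relative to its own siControl mean, was at 0.006, -0.045 and 0.041 in the siControl libraries and at 0.259, 0.156 and 0.233 in the siSFPQ libraries on the log2 scale.

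**Figure D2:**
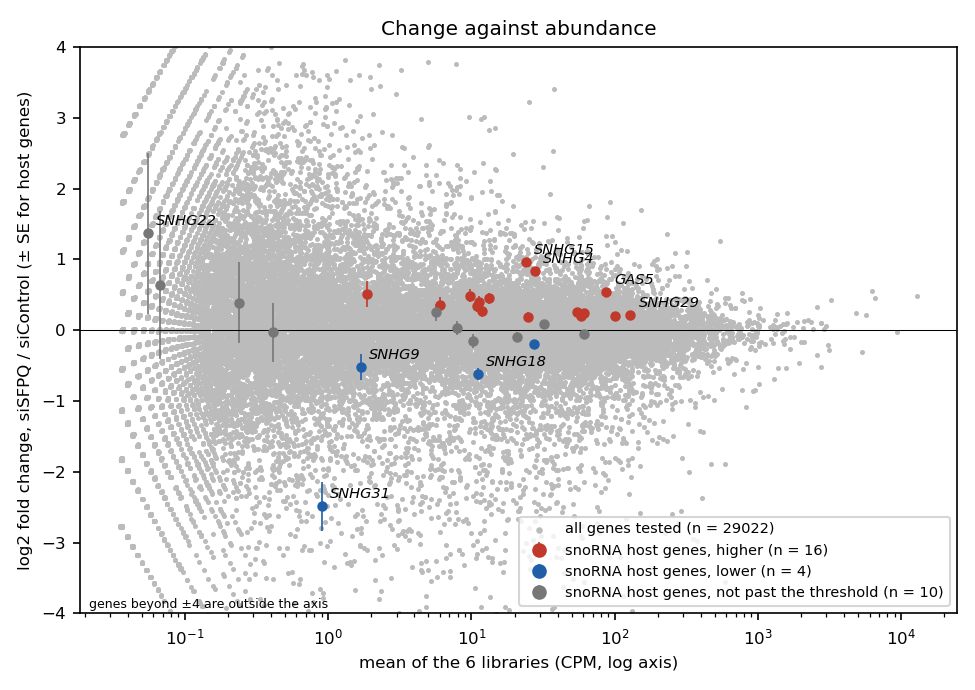
The x axis is the mean of the 6 libraries in CPM on a log axis, the y axis the log2 fold change of siSFPQ over siControl, grey points are all 29022 genes tested, and coloured points with SE bars are the 30 host genes tested. The well-counted host genes form a band mostly above 0 and below 1, and SNHG31 lies apart at -2.49.

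The host genes differ in how they begin. RefSeq (GRCh38.p14) gave a start for 27 of the 31 genes, and a 5′TOP start was searched on the gene's strand as a first base C followed by at least 4 bases that are each C or T. By this rule 7 of the 27 host genes had one (25.9%), beside 4.07% of the 35116 genes with a start sequence and 54.3% of 81 ribosomal protein genes. The first 30 bases of these 7 host genes are shown because they carry that tract, 5′ to 3′, with the tract in capitals. GAS5, whose RNA is known as a 5′TOP RNA, is listed last because its annotated RefSeq start does not begin with C.
SNHG4: CCCTTTCCCCTCCggcctctgccggtgctg
SNHG12: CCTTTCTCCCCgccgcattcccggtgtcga
SNHG18: CTCCTCCTCCTCCTCCTCCCCgccggggtg
SNHG32: CTTTTTgcgaagtgggctcgtgggttggca
SNHG5: CTTTTacgtcggccttcgcgagcgtctggg
SNHG19: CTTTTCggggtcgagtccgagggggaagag
ZFAS1: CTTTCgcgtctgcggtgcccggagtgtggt
GAS5: agatgtgtttattttggagcctacaccagc

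Host genes with the tract were found among those that rose, those that fell and those that did not pass. Of the 7 genes, SNHG4, SNHG5, SNHG12 and ZFAS1 rose, SNHG18 fell, and SNHG32 and SNHG19 did not pass. The tract was found in 4 of the 15 rising genes that had a start sequence, in 1 of the 3 falling genes and in 2 of the 8 that did not pass. A match to these letters describes an annotated start only, and SNHG6, SNHG9, SNHG15 and SNHG25 were not matched to one.

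The highest rises were those of SNHG15 and SNHG4, both hosts of H/ACA snoRNAs. SNHG15 (chromosome 7, 44983019 to 44986961, minus strand), which holds SNORA9, had 736, 747 and 732 counts in siControl and 1463, 1403 and 1442 in siSFPQ. No library of one group came near the other group. Its normalized counts went from 739 ± 6.75 to 1435 ± 68.9 (SD, n = 3), a 1.94-fold rise, with a log2 fold change of 0.96 (SE 0.061, edgeR adjusted p = 5.21e-15).

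SNHG4 (chromosome 5, 139274102 to 139284899, plus strand) holds SNORA74A, also called U19, and SNORA74D, and it opens with a tract of 13 bases. It had 814, 927 and 978 counts in siControl and 1609, 1550 and 1683 in siSFPQ. The groups were again far apart, at 908 ± 84.2 and 1612 ± 82.6 normalized counts (SD, n = 3), and the log2 fold change was 0.83 (SE 0.064, edgeR adjusted p = 5.65e-13).

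GAS5 (growth arrest-specific 5; chromosome 1, 173858559 to 173868882, minus strand) is a classical host that RefSeq lists with 10 C/D snoRNAs, SNORD44, SNORD47 and SNORD74 to SNORD81, within its span; the H/ACA snoRNA SNORA103 also lies there, on a strand the table does not give. Its RNA accumulates in cells that stop growing and is a known substrate of NMD. GAS5 had 3277, 3002 and 3394 counts in siControl and 4670, 4612 and 4783 in siSFPQ. All siSFPQ libraries lay well above the siControl range, with a log2 fold change of 0.54 (SE 0.045, edgeR adjusted p = 4.38e-12). Since GAS5 is among the most abundant hosts, its rise from 69.1 to 105 CPM was also among the largest in reads.

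A middle group rose by between 0.34 and 0.51. SNHG11 and SNHG17 lie 10.9 kb apart on chromosome 20 on opposite strands, and both hold H/ACA snoRNAs of the SNORA71 family. SNHG11 had 341, 390 and 371 counts in siControl and 497, 546 and 512 in siSFPQ, a log2 fold change of 0.49 (SE 0.087). SNHG17 had 532, 458 and 535 counts in siControl and 703, 696 and 696 in siSFPQ, a log2 fold change of 0.45 (SE 0.08). Both neighbours were thus higher in each siSFPQ library, with edgeR adjusted p of 1.63e-05 and 1.43e-05.

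SNHG12 holds 3 H/ACA snoRNAs and the C/D snoRNA SNORD99, and its RNA has been studied in several tumour types. SNHG12 had 436, 433 and 457 counts in siControl and 578, 595 and 581 in siSFPQ, with a log2 fold change of 0.40 (SE 0.08, edgeR adjusted p = 9.66e-05). The replicates of each group were close together and the groups did not overlap.

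ZFAS1, the host of the SNORD12 family, had 484, 411 and 423 counts in siControl and 540, 571 and 559 in siSFPQ, and SNHG20, the host of the scaRNA SCARNA16, had 258, 233 and 234 in siControl and 292, 313 and 327 in siSFPQ. Neither gene overlapped between the groups. The log2 fold changes were 0.34 (SE 0.084, edgeR adjusted p = 0.00129) for ZFAS1 and 0.36 (SE 0.104, edgeR adjusted p = 0.00524) for SNHG20. SNHG5, the host of SNORD50A and SNORD50B, had 65, 69 and 75 counts in siControl and 112, 107 and 79 in siSFPQ. Its siSFPQ replicate 3 sat just above the siControl range, and the log2 fold change of 0.51 (SE 0.188, edgeR adjusted p = 0.0271) had an adjusted p of 0.16 without siSFPQ replicate 1.

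The remaining 7 rises were under 0.3, most of them in abundant hosts. SNHG29 holds SNORD49A, SNORD49B and SNORD65. It had 5166, 5367 and 5633 counts in siControl and 6143, 6071 and 6576 in siSFPQ, a log2 fold change of 0.21 (SE 0.042, edgeR adjusted p = 6.76e-05). SNHG14, which is imprinted and carries the SNORD115 and SNORD116 clusters of the Prader-Willi region over a span of 442 kb, had 4133, 4390 and 4156 counts in siControl and 4752, 5130 and 4767 in siSFPQ. The groups did not overlap for either gene, and the log2 fold change of SNHG14 was 0.20 (SE 0.041, edgeR adjusted p = 9.38e-05).

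SNHG1 carries the SNORD25 to SNORD31 series and SNORD22, also called U22. It had 2547, 2503 and 2399 counts in siControl and 2854, 2785 and 2949 in siSFPQ, a log2 fold change of 0.20 (SE 0.045). SNHG16, the host of SNORD1A, SNORD1B and SNORD1C, had 2642, 2480 and 2573 counts in siControl and 2942, 2965 and 3232 in siSFPQ, a log2 fold change of 0.24 (SE 0.045). Both rose modestly with tight replicates, at edgeR adjusted p of 0.000401 and 3.49e-05.

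SNHG3 carries SNORA73A and SNORA73B, the U17 snoRNAs, which act in ribosomal RNA processing. It had 2258, 2101 and 2459 counts in siControl and 2663, 2659 and 2792 in siSFPQ, a log2 fold change of 0.25 (SE 0.05, edgeR adjusted p = 0.000123). SNHG30, the host of SNORD7, rose by 0.27 (SE 0.086, edgeR adjusted p = 0.00938), from 442, 519 and 507 counts to 579, 550 and 650. SNHG8, the host of SNORA24, rose by 0.19 (SE 0.063, edgeR adjusted p = 0.0125), from 994, 1015 and 1151 counts to 1188, 1177 and 1260. Both calls were lost when single libraries were left out: SNHG30 had an adjusted p of 0.0605 without siControl replicate 1 and 0.0708 without siSFPQ replicate 3. SNHG8 had 0.067 and 0.0559 without siControl replicates 1 and 2, and 0.0501 without siSFPQ replicate 3.

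The host genes that fell were SNHG31, SNHG18, SNHG9 and SNHG7. SNHG31 (chromosome 2, 214810181 to 214963575, plus strand), with a span of 153 kb around SNORA70I, had 101, 64 and 49 counts in siControl and 9, 23 and 6 in siSFPQ. The scatter was wide in both groups, but the highest siSFPQ library remained below the lowest siControl library. Normalized counts went from 71.4 ± 26.8 to 12.6 ± 8.77 (SD, n = 3), a 5.61-fold fall with a log2 fold change of -2.49 (SE 0.351, edgeR adjusted p = 3.51e-07), which lay between -3.23 and -2.14 when each library was left out in turn.

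SNHG18 (chromosome 5, 9546170 to 9550725, plus strand) is the host of SNORD123. It had 645, 609 and 598 counts in siControl and 383, 411 and 418 in siSFPQ, and so fell in every library, with a log2 fold change of -0.62 (SE 0.081, edgeR adjusted p = 9.39e-08). SNHG7, the host of SNORA17A and SNORA17B, had 1346, 1337 and 1314 counts in siControl and 1112, 1108 and 1263 in siSFPQ, a smaller fall of 0.20 on the log2 scale (SE 0.059, edgeR adjusted p = 0.00504). SNHG9, the host of SNORA78, had 93, 96 and 85 counts in siControl and 66, 63 and 63 in siSFPQ, at -0.52 (SE 0.187, edgeR adjusted p = 0.0238). Its call was lost with DESeq2 (adjusted p = 0.0654) and without siControl replicate 2, siSFPQ replicate 2 or siSFPQ replicate 3 (0.0637, 0.0622 and 0.0759).

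Another gene of the family stood outside the symbol rule. LINC00888 carries the symbol SNHG33 in RefSeq, and it fell from 795, 760 and 805 counts to 473, 530 and 489, a log2 fold change of -0.67 (SE 0.075, edgeR adjusted p = 3.89e-09). Its libraries did not overlap between the groups, and it is not counted among the 31.

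The host genes that did not pass fall into well-counted and sparse ones. DANCR, the host of SNORA26 and a known regulator of differentiation, had 2926, 2656 and 2879 counts in siControl and 2707, 2646 and 2817 in siSFPQ, with a log2 fold change of -0.05 (SE 0.047, edgeR adjusted p = 0.373). SNHG6, the host of SNORD87, had 1376, 1382 and 1499 counts in siControl and 1462, 1571 and 1503 in siSFPQ (0.09, SE 0.054, edgeR adjusted p = 0.207). In both, the groups overlapped.

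SNHG19, the host of SNORD60, had 998, 982 and 951 counts in siControl and 938, 854 and 976 in siSFPQ (-0.09, SE 0.067), and SNHG32, the host of SNORD48 and SNORD52, had 356, 337 and 380 in siControl and 371, 376 and 349 in siSFPQ (0.03, SE 0.095). SNHG26, the host of SNORD93, had 442, 465 and 568 counts in siControl and 490, 434 and 411 in siSFPQ (-0.15, SE 0.098). SNHG10, the host of SCARNA13, had 250, 213 and 247 counts in siControl and 324, 264 and 258 in siSFPQ (0.25, SE 0.117, edgeR adjusted p = 0.0845). Its libraries did not overlap, and the first siSFPQ library stood above the others.

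The sparse genes had few counts in every library. SNHG21 had 15, 11 and 31 counts in siControl and 18, 20 and 18 in siSFPQ, and SNHG27 had 18, 7 and 3 in siControl and 9, 12 and 16 in siSFPQ. SNHG25 had 3, 2 and 2 counts against 8, 1 and 2, and SNHG22 had 0, 2 and 2 against 2, 5 and 4. A count of 3 in 1 library corresponds to between 0.0637 and 0.069 CPM here, and these limits cover counting error only.

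Both main classes of snoRNA were carried by hosts that rose and by hosts that fell. Of 12 hosts of C/D snoRNAs alone, 7 rose and 1 fell, with a median log2 fold change of 0.20. Of 11 hosts of H/ACA snoRNAs alone, 6 rose and 3 fell (27.3%), with a median of 0.25, beside 22.4% that rose and 22.1% that fell over all genes tested. The H/ACA falls are thus near the background share, and this class held both the highest rise, in SNHG15, and the deepest fall, in SNHG31. Neighbouring hosts rose together in 3 of 4 pairs within 1 Mb: SNHG3 and SNHG12, SNHG17 and SNHG11, and SNHG16 and SNHG20. In the remaining pair, SNHG9 fell and SNHG19 did not pass. With 16 of the 30 tested host genes rising, hosts far apart can rise together too, and whether nearness mattered was not tested.

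Few reads were counted on the snoRNAs themselves. Of 144 snoRNA and scaRNA genes of the table that lie inside a host gene on its strand, 16 had any count and 7 could be tested. Of 85 that overlap a host exon, 1 had a count, against 15 of 59 that lie wholly in introns. Reads on bases of more than one gene were left uncounted, as the counts of overlapping genes show, so the zeros of the 85 do not show what the libraries held. SNORA73B, inside SNHG3, was the one that rose, from 10, 24 and 23 counts to 50, 28 and 30 (log2 fold change 0.92, SE 0.36, edgeR adjusted p = 0.0368). SNORD104, inside SNHG25, had 51, 26 and 53 counts in siControl and 62, 43 and 59 in siSFPQ and overlapped between the groups (0.33, edgeR adjusted p = 0.332). SNORD99, SNORD93, SNORA71B, SNORD123 and SNORD12C did not pass either. A read counted on a snoRNA gene may come from an unspliced host, and which of these was counted was not tested. The coding gene RCC1 shares bases with SNHG3 on the same strand, itself holds a numbered snoRNA and rose by 0.67. Whether its RNA gave part of the SNORA73B reads was not tested.

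Both classes are shown by these snoRNAs, as GENCODE gives them on GRCh38, because they are the hosted snoRNAs that carried the most reads. In SNORD104 (chr17:64146083-64146152, plus strand) the capitals mark box C, searched as TGATGA, and box D, searched as CTGA. In SNORA73B (chr1:28508559-28508762, plus strand) the capitals mark the ACA box near the 3′ end.
SNORD104: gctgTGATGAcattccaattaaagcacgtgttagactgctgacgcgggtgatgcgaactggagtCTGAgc
SNORA73B: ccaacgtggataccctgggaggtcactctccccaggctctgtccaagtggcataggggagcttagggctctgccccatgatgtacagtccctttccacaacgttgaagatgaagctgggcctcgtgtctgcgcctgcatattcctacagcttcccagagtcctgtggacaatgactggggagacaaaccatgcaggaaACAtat

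How the reads were counted bears on these genes, because host genes often share bases with their snoRNAs and with coding genes on the other strand. Genes lying wholly inside an exon of an opposite-strand gene with a mean of at least 100 counts were at 0 in all libraries in 403 of 418 cases (96.4%), nearly the same share as on the same strand (565 of 584, 96.7%). Inside introns without a shared exon, 2340 of 7645 (30.6%) were at 0. Reads on bases of more than one gene were thus left uncounted whichever the strand, although the kit was stranded. The part of the canonical transcript outside exons of other genes was 100% in 10 host genes and under 60% in 9, with 18.3% in SNHG6, 34.6% in ZFAS1 and 39.3% in SNHG5. Among the 10 wholly unshared genes, which include GAS5, SNHG1, SNHG16, SNHG17 and SNHG29 as well as SNHG9, SNHG18 and SNHG31, 5 rose and 3 fell, with a median log2 fold change of 0.21. These counts are read beside all genes tested, of which 22.4% rose and 22.1% fell. With 10 genes, 3 falls are not far from that share.

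**Figure D3:**
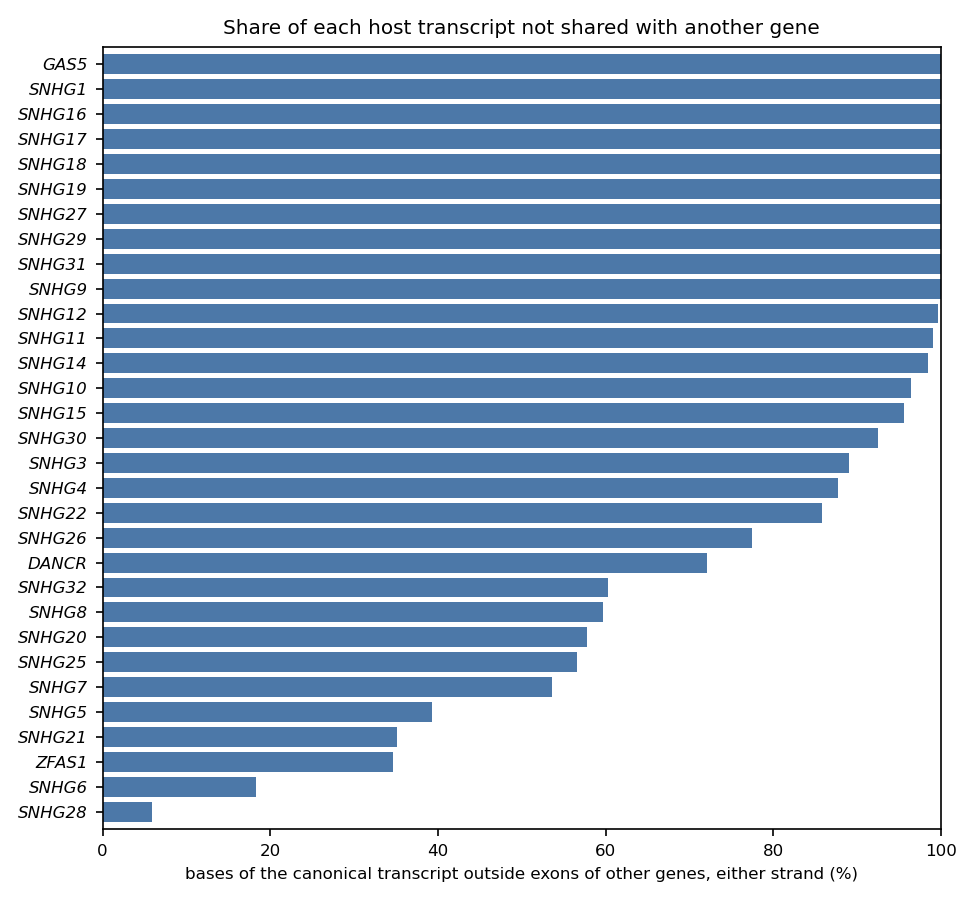
Bars give, for each of the 31 host genes, the percentage of bases of the canonical transcript that lie outside exons of all other genes on either strand; reads on further exons of a gene were counted too. The bars run from 5.9% in SNHG28 to 100% in 10 genes.

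Levels were compared between hosts per kilobase of unshared exonic sequence. In siControl, SNHG19 led with 39.4 CPM per kb, followed by SNHG6 with 32.0, SNHG1 with 15.8 and GAS5 with 15.2 CPM per kb. In siSFPQ the level of GAS5 was 23.0 CPM per kb, above the 19.0 of SNHG1. The order depends on which length is taken. The reads of the whole gene were also divided by the unshared bases of its canonical transcript alone. By that measure SNHG29 stood first with 260 CPM per kb in siControl and 315 in siSFPQ. It was followed in siControl by SNHG16 with 110, SNHG6 with 91.3 and GAS5 with 89.9 CPM per kb. Reads on other exons stayed in this measure, so it is not a level of the canonical transcript. In siSFPQ, SNHG16 and GAS5 were level at 136 CPM per kb and SNHG6 had 101.

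The genes that share bases or starts with the hosts went in both directions. A coding gene starts within 1 kb of the host on the other strand for 8 hosts, and of these 8 coding genes 2 rose and 2 fell, or 4 and 2 with library size alone as the scaling. All 8 reached 1 CPM, and of all genes at that level 30.2% rose and 34.4% fell in the main test. There, neither count of these 8 genes was above the share of all genes. ZNFX1, an antiviral helicase gene 248 bp from ZFAS1, rose by 0.73 (SE 0.04), and TRAF7 rose by 0.20 beside SNHG19, which did not pass. SEMA5A, 95 bp from SNHG18, fell by 0.77 with 78, 80 and 65 counts in siControl and 32, 51 and 48 in siSFPQ, and BARD1, 498 bp from SNHG31, fell by 0.33. The call for SEMA5A, at a mean of 1.28 CPM, was lost without siSFPQ replicate 1 (edgeR adjusted p = 0.0546). RPS2, a ribosomal protein gene 54 bp from SNHG9, was at 0.01 (edgeR adjusted p = 0.886).

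Of 26 tested genes that share exonic bases with a host, 7 rose (26.9%) and 6 fell (23.1%). These shares lie near the 22.4% and 22.1% of all genes tested. RCC1, the exchange factor of Ran, shares bases with SNHG3 on the same strand and rose by 0.67, more than SNHG3. MYO5B overlaps the sparse SNHG22 and rose by 0.62, and PRSS12 overlaps SNHG8 and fell by 0.50. UBE3A, the imprinted ubiquitin ligase gene opposite SNHG14, rose by 0.11 (SE 0.039, edgeR adjusted p = 0.0286).

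The proteins that bind snoRNAs were examined next. Of the 8 core proteins of snoRNA particles, 6 rose and 0 fell, with a median log2 fold change of 0.19. These proteins and the groups that follow, other than the non-coding hosts, are read beside all genes at 1 CPM or more. Of those, 30.2% rose and 34.4% fell. NOP58 and NOP56, the paired C/D proteins, rose by 0.44 (4144, 4171 and 4559 counts in siControl, 5649, 5925 and 6001 in siSFPQ) and by 0.34. Fibrillarin (FBL), the C/D methyltransferase, rose by 0.17 and SNU13, which binds the C/D kink-turn, by 0.22. Of the H/ACA proteins, GAR1 rose by 0.25 and the pseudouridine synthase DKC1 by 0.13, while NOP10 at 0.12 and NHP2 at -0.11 did not pass (edgeR adjusted p = 0.0612 and 0.0866). One of the core proteins, NHP2, was called lower when siControl replicate 1 or siSFPQ replicate 2 was left out.

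Of 13 assembly factors, 6 rose (46.2%) and 3 fell (23.1%), with a median of 0.09. NOPCHAP1, RUVBL1 and NOLC1 rose by 0.49, 0.47 and 0.38. SHQ1, a chaperone of DKC1, fell by 0.67, TAF9 by 0.63 and RUVBL2, the partner of RUVBL1 in the R2TP complex, by 0.29. The pair of RUVBL ATPases therefore went in opposite directions, each with no overlap between the groups.

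NMD limits many host RNAs, and its factors were examined for that reason. Of 18 NMD factors, 3 rose, 8 fell (44.4%) and 7 did not pass, with a median log2 fold change of -0.05, beside 34.4% that fell among all genes at 1 CPM or more. SMG6, the endonuclease of the pathway, had 1737, 1738 and 1712 counts in siControl and 602, 692 and 600 in siSFPQ, a log2 fold change of -1.46 (SE 0.062, edgeR adjusted p = 6.44e-20). NBAS fell by 0.90, UPF3B by 0.46, SMG9 by 0.34, the central helicase UPF1 by 0.28, UPF2 by 0.25 and SMG5 by 0.19. SMG8, PNRC2 and EIF4A3 rose by 0.21, 0.19 and 0.13.

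Coding genes whose messages are known NMD substrates were mixed. Of 9, 4 rose (44.4%) and 2 fell (22.2%), with a median of 0.08, beside the same 30.2% and 34.4%. ATF3 rose by 0.81, GADD45A by 0.62 and UPP1 by 0.50, whereas DDIT3 fell by 0.72 and GADD45B by 0.66. Whether the NMD factors that fell had a part in the host genes' rise was not tested.

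Of 16 tested translation genes known for 5′TOP starts, 6 rose (37.5%) and 2 fell (12.5%), with a median of 0.06, and 11 rose and 1 fell with library size alone. EEF1D rose by 1.01, EEF1B2 by 0.24 and RACK1 by 0.15, and TPT1 and EIF3F fell by 0.19 and 0.13. EEF1G was listed at 0 in all libraries and is not among those tested.

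Other genes that carry snoRNAs went in both directions. Of 253 tested protein-coding hosts, 26.1% rose and 34.8% fell, with a median log2 fold change of -0.04, and with library size alone 93 rose and 75 fell in place of 66 and 88. The 170 tested coding hosts of a numbered snoRNA, the kind most host genes here carry, were balanced, with 30.6% that rose, 30.0% that fell and a median of 0.01. These shares lie near the 30.2% and 34.4% of all genes at 1 CPM or more. The coding hosts themselves had no such cut, and 224 of the 253 reached 1 CPM. Beside the 22.4% and 22.1% of all genes tested, the shares of both sets of coding hosts were higher. PPAN, a ribosome biogenesis gene, rose by 1.02, HTR2C by 0.85 and RCC1 by 0.67. RCC1 is the gene given above that shares bases with SNHG3 on the same strand, so these coding hosts are not wholly separate from the group. PLCB1 fell by 4.01, with 1396, 1317 and 1212 counts in siControl and 75, 94 and 75 in siSFPQ, CAMK1D fell by 3.29 and CFDP1 fell by 2.79. Of 31 tested non-coding hosts outside the group, 4 rose (12.9%) and 6 fell (19.4%), with a median of 0.04. Only 12 of them reached 1 CPM, so they are read beside all genes tested, of which 22.4% rose and 22.1% fell. Of all long non-coding RNA genes tested, 17.1% rose and 12.2% fell. ENSG00000285872, which has no symbol in the annotation, rose by 0.66 and EPB41L4A-AS1 by 0.63. GPRC5D-AS1 fell by 1.54, LINC00888 fell by 0.67 as given above, and the pseudogene RPS18P9 fell by 0.43. Falls beyond 1.5 on the log2 scale occurred in 18 of the 253 coding hosts, and in 7 of the 170 with a numbered snoRNA. In the group, 1 of the 30 tested host genes fell that far, and the difference between these shares was not tested.

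**Figure D4:**
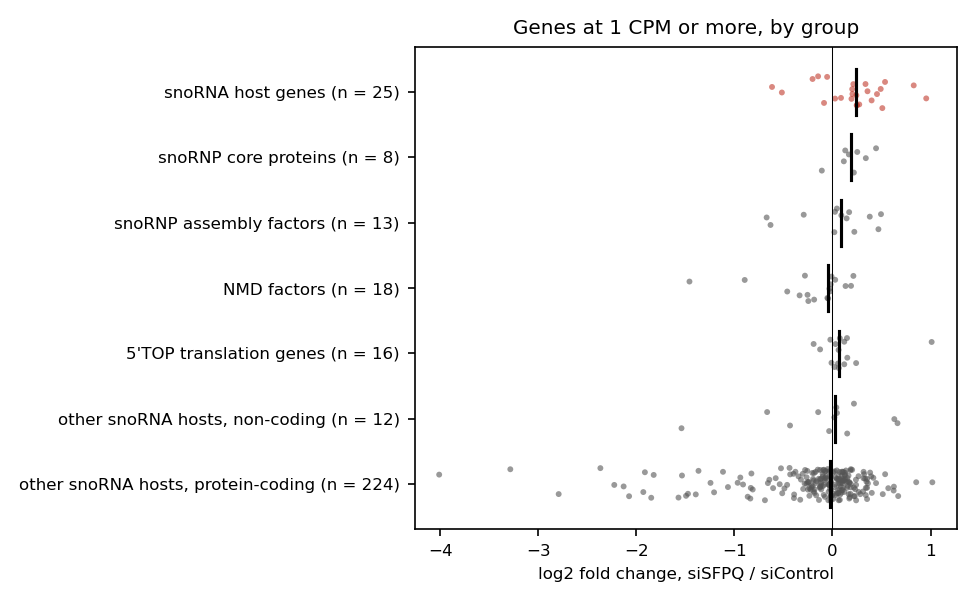
Each point is a gene with a mean of at least 1 CPM, at its log2 fold change of siSFPQ over siControl, in rows for the snoRNA host genes and 6 related groups; vertical bars are medians and the vertical scatter has no meaning. The median is 0.24 for the host genes and 0.19 for the snoRNA particle proteins, near 0 for the other groups, and the coding hosts have a long tail down to -4.01.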

How the data were processed

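The authors aligned and counted paired-end reads of stranded libraries of polyadenylated RNA with STAR 2.7.9a on Ensembl GRCh38 and deposited raw counts per Ensembl gene, which were used as they are. The submitters' processing notes also name FastQC and DESeq2. The strand setting of the counting is not given in the sources used here. All 6 columns were used and 0 were left unused. The quasi-likelihood test of edgeR 4.0.16 (R 4.3.3) was run on the 29022 genes that had 10 or more counts in total, after TMM scaling, without covariates and with Benjamini-Hochberg adjustment. Each SE was derived from a gene's log2 fold change and its F statistic, and normalized counts are counts divided by effective library sizes, scaled to their geometric mean.

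The members and lists were chosen with earlier results of these data known, so counts per list are descriptions and got no test. Genes named are all members, SFPQ, NONO and PSPC1, NMD factors and snoRNA particle proteins, and per other list the 3 largest rises and falls past an adjusted p of 0.05 at 1 CPM or more on average and with groups that do not overlap; SNHG33, UBE3A, RPS2, EEF1G and hosted snoRNAs were named after their values were seen. Some genes of the lists are counted but not reported here by name. Annotation was GENCODE 44, which held 60463 of the 60664 identifiers; snoRNA names also came from RefSeq, by position without strand. The test was checked on simulated counts with known log2 changes of 1 and 2, of which edgeR recovered 93 of 100 and 100 of 100. Smaller changes, which most host genes had, were not simulated. Replicates differed by more than sampling noise.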

Additional observations from a re-analysis of the deposited data

How the results depend on the processing

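The alternatives were filterByExpr or no filter beyond 1 count, scaling by RLE or by library size alone, DESeq2 1.42.0, the replicate number as a block, and each library left out. Of the 20 host genes called, 16 kept an adjusted p under 0.05 in all 12 alternatives, and no host gene called changed direction in any of them; SNHG8 held in 9, SNHG30 in 10, SNHG9 in 8 and SNHG5 in 7 (DESeq2 adjusted p = 0.0738). Leaving out 1 library gave 13 to 16 host genes higher and 3 to 4 lower, 0 to 1 snoRNA particle proteins lower and 1 to 2 coding genes with a nearby start lower. With library size alone the median of the host genes was 0.308 beside 0.083 over all genes, SNHG10 and SNHG6 passed (edgeR adjusted p = 0.0305 and 0.0213), and higher calls were 11 of the 5′TOP translation genes (1 lower), 2 of the DBHS genes and 4 of the coding genes with a nearby start. With filterByExpr, 967 genes in all rose past 1.5 in place of 1609. With the replicate block, all 30 host genes kept their call, with 16 higher and 4 lower. Deviations of libraries with the same number correlated at -0.0251, 0.0697 and 0.0355, and those with different numbers at between -0.0723 and 0.0347. All are small, and with 3 libraries per group they do not settle whether the numbers pair the libraries. The counts of SNHG22, SNHG25, SNHG27, SNHG21 and SNHG28 are few, and the part of depth and of shared bases in this was not tested.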
